A study of Danio rerio with 6 samples.

Results

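Leukocyte marker genes were followed in zebrafish larvae (AB strain) whose caudal fin was cut off when they were 2 days old, counted from fertilization. The regrowing fin was taken 1 day later. The markers are genes whose transcripts are known from neutrophils, from macrophages or from leukocytes at large, namely lyz, mpx, ncf1, cebp1, cxcr4b, grna, grn1, lgals9l1, lcp1 and coro1a. They were chosen by name, as probe sets that the array annotation assigns to a single one of these symbols. Of the 10 genes, 9 were found under that name. The older name grn1 is listed by RefSeq (assembly GRCz12tu) as a synonym of grna.1, which had 1 probe set and is given under that symbol. This gave 15 probe sets for 10 genes, among 8793 named genes and 15502 probe sets tested.

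The exposed group was 3 pools from larvae that swam for that day in 1 uM beclomethasone, a glucocorticoid drug, and the other group was 3 control pools. Each pool held the fins of 150 larvae and was hybridised to a single Affymetrix zebrafish array after 2 rounds of labelling amplification. The controls are vehicle controls in the series description, whereas the protocol attached to them is that of a time course of regeneration without mention of vehicle, so a difference between those experiments and the exposure cannot be told apart. Whether the pools came from separate clutches is not stated, and p-values measure the spread between these pools only. Values are ratios, in most cases to the median of the same probe set across the 6 arrays, so they compare pools within a probe set and give no level of one gene against another.

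Neutrophils and macrophages reach a cut fin fold within hours of the injury, and in zebrafish larvae both act before an adaptive immune system is in place. Neutrophils carry granule enzymes such as lysozyme and myeloperoxidase and an NADPH oxidase that makes reactive oxygen. Macrophages clear debris through lysosomal enzymes and scavenger receptors, and glucocorticoids are used as drugs because they restrain inflammatory cells. In whole fin tissue, fewer cells of a type and less of its RNA per cell cannot be told apart.

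The control pools were not alike in these genes. Log2 ratios over all probe sets correlated at 0.778 between control pools 2 and 3 and at 0.589 and 0.583 between control pool 1 and each of them, against 0.656 to 0.748 between exposed pools, as a description across probe sets. Control pool 1 lay at least 2-fold below both other control pools in 136 of 15502 probe sets and at least 2-fold above both in 120. For control pool 2 these counts were 4 and 45, and for control pool 3 they were 11 and 8. Among the 15 leukocyte marker probe sets, control pool 1 lay at least 2-fold below both others in 4 and above in none, and no other pool of either group lay that far from its group in any of them. Control pool 1 is therefore given apart from control pools 2 and 3 throughout. It was set apart with these values known. For a gene in which it lay apart, leaving it out narrows the spread of the controls by that choice. Adjusted p-values without control pool 1 thus describe the remaining pools and do not test whether those genes fell. The glucocorticoid receptor co-chaperone gene fkbp5, a known glucocorticoid target, had ratios of 1.7, 1.9 and 1.86 in exposed pools, against 0.302 in control pool 1 and 0.132 and 0.225 in control pools 2 and 3.

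**Figure D1:**
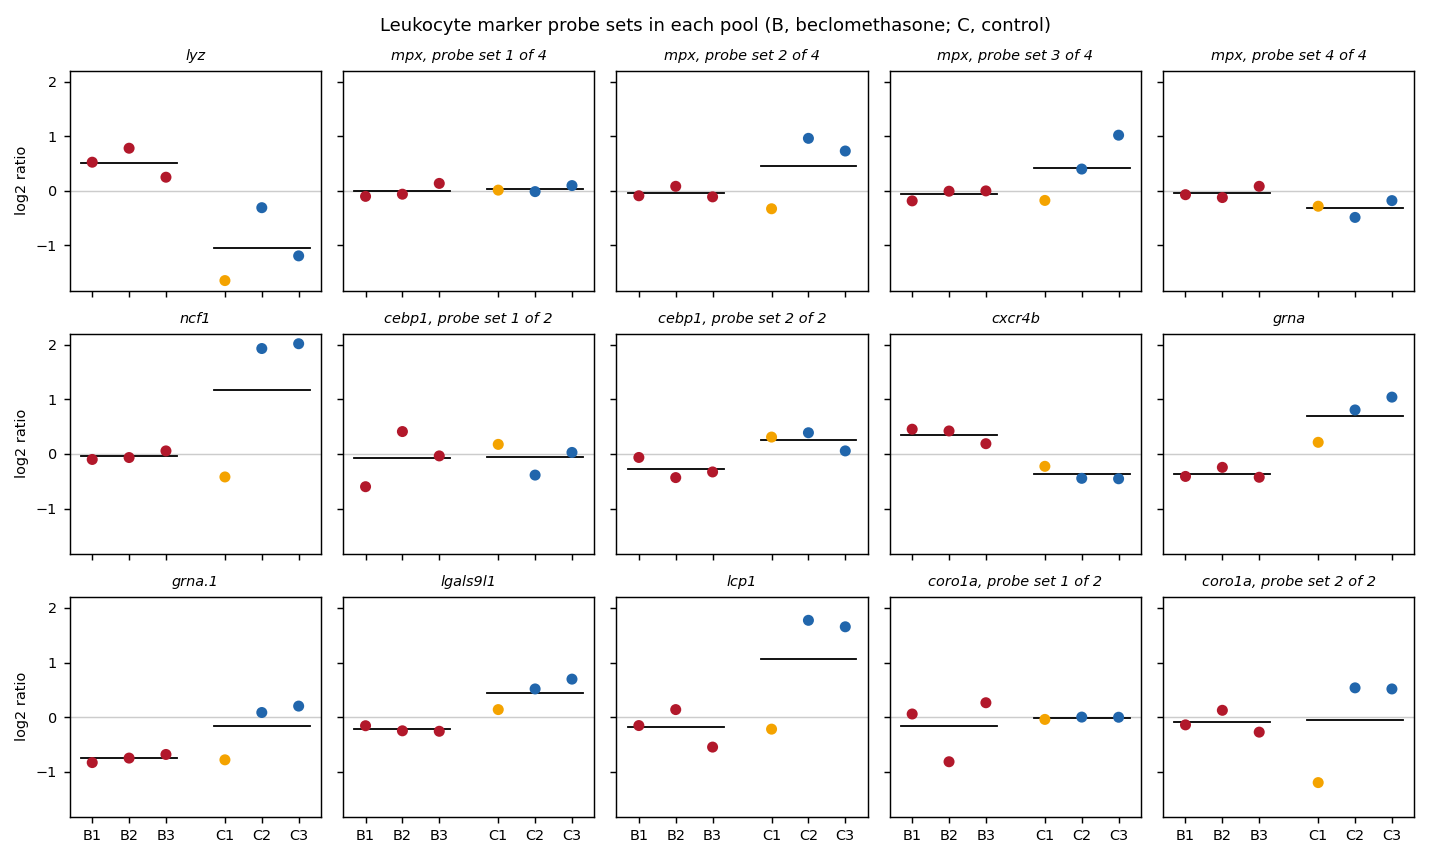
Log2 ratio of each leukocyte marker probe set (vertical axis, relative to the probe set's median over the arrays for all but 2 panels) in exposed pools B1 to B3 (red), control pool C1 (orange) and control pools C2 and C3 (blue), with black lines at group means. Ncf1 and lcp1 stand high in C2 and C3, while C1 lies with the exposed pools, and lyz is higher in all exposed pools than in any control pool.

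Over all 6 pools, 2 of the 15 marker probe sets were higher and 2 were lower in exposed fins by limma at a Benjamini-Hochberg adjusted p under 0.05, while 2.88% of all probe sets were higher and 3.24% were lower, 6.12% in all. The genes that rose were lyz and cxcr4b, and those that fell were grna and lgals9l1. Without control pool 1, lyz and cxcr4b were again the only 2 called higher (3.64% of all probe sets), and the number called lower was 7 (4.31% of all probe sets; 7.95% in either direction), from mpx, ncf1, grna, grna.1, lgals9l1, lcp1 and coro1a. The median log2 difference of the 15 probe sets was -0.47 with all pools and -0.62 without control pool 1, where the medians over all probe sets were 0.029 and 0.037.

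**Figure D2:**
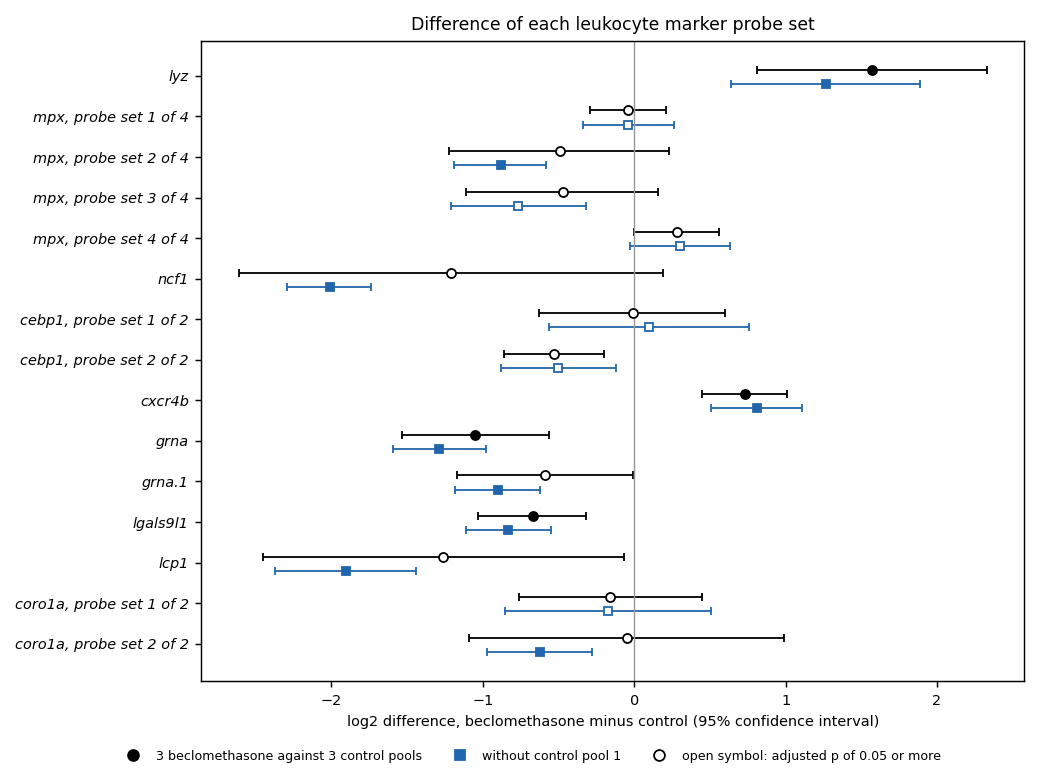
Log2 difference between exposed and control pools with its 95% confidence interval (horizontal axis) for each leukocyte marker probe set, from all 6 pools (black circles) and without control pool 1 (blue squares); filled symbols have an adjusted p under 0.05. For ncf1 the interval runs from -2.61 to 0.19 with all pools and from -2.29 to -1.74 without control pool 1.

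Among the neutrophil genes, lyz encodes lysozyme C, a granule enzyme that breaks bacterial cell walls. Its ratios were 1.44, 1.72 and 1.19 in the exposed pools, against 0.32 in control pool 1 and 0.808 and 0.438 in control pools 2 and 3. Every exposed pool lay above every control pool, and the controls themselves spread more widely than the exposed pools on the log2 scale. The log2 difference was 1.57 ± 0.32 (SE, n = 3 pools per group; 2.97-fold higher; limma adjusted p = 0.035) and 1.27 ± 0.27 without control pool 1 (adjusted p = 0.0301). The call was lost with exposed pool 1, 2 or 3 left out (adjusted p = 0.12, 0.107 and 0.0894), with control pool 3 left out (adjusted p = 0.102) and with arrays centred on their medians (adjusted p = 0.0503). The order of lyz among the controls, lowest in pool 1 and highest in pool 2, was also that of the skeletal muscle markers. Their median log2 ratio was 0.71, 0.01 and 0.07 in exposed pools, and -1.39, -0.01 and -1.07 in control pools 1 to 3. That rank order was not particular to muscle. The median of the neutrophil genes, lyz among them, had it too, at -0.40, 0.23 and 0.04 in control pools 1 to 3. So had the medians of the macrophage, pan-leukocyte and erythroid genes. Not every list had it, the epidermal genes being highest in control pool 1. The spacing differed between those that did. In log2, control pool 3 lay nearer to control pool 1 for lyz and for the muscle median. It lay nearer to control pool 2 for the neutrophil, macrophage, pan-leukocyte and erythroid medians. Without control pool 2, lyz rose by 1.94 on the log2 scale (adjusted p = 0.00987), and 21 of 29 muscle genes were called higher, where 1 was with all pools. The share of all genes called without control pool 2 is not given, so that count has no background beside it. The part of muscle cells in the lyz result was not tested.

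Myeloperoxidase, the enzyme of neutrophil granules that turns hydrogen peroxide into hypochlorous acid, is encoded by mpx and was read by 4 probe sets that did not behave alike. On the second of them the ratios were 0.94, 1.06 and 0.927 in the exposed pools, against 0.797 in control pool 1 and 1.95 and 1.66 in control pools 2 and 3. On the third they were 0.881, 0.996 and 1.0, against 0.886 in control pool 1 and 1.32 and 2.03 in the other control pools. Control pools 2 and 3 were thus above all exposed pools on both, and control pool 1 was not. The second probe set had a log2 difference of -0.49 ± 0.31 (adjusted p = 0.451) and fell by 0.88 ± 0.13 without control pool 1 (adjusted p = 0.00823), and the third had -0.47 ± 0.27 (adjusted p = 0.401) and -0.77 ± 0.19 without control pool 1 (adjusted p = 0.0527). The remaining probe sets of mpx showed no such split. The first ranged from 0.933 to 1.1 in the exposed pools and from 0.991 to 1.07 in the controls (difference -0.04, 95% interval -0.29 to 0.21, adjusted p = 0.897). The fourth lay at 0.953, 0.919 and 1.06 in exposed pools, above its 0.823 in control pool 1 and 0.714 and 0.884 in control pools 2 and 3 (0.28 ± 0.12, adjusted p = 0.237). Its median over the 6 arrays was 0.901, below 1, so the divisor of its ratios is not known. The second and the third are of the array's _a_at type, which reads several transcripts of a gene.

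Ncf1 encodes p47phox, the cytosolic subunit that switches on the phagocyte NADPH oxidase. Its ratios were 0.933, 0.956 and 1.04 in exposed pools, against 0.747 in control pool 1 and 3.82 and 4.06 in control pools 2 and 3. Control pool 1 was below every exposed pool, while the other control pools were about as far above them as any marker reached. With all pools the log2 difference was -1.21 ± 0.60 (adjusted p = 0.316). Without control pool 1 ncf1 fell by 2.01 ± 0.12 on the log2 scale, or 4.03-fold (adjusted p = 0.000305). The smaller standard error follows from leaving out the control pool that lay apart. The other oxidase subunit genes on the array were given by their gene values: cyba, of the membrane-bound p22phox, had -0.12 ± 0.15 (adjusted p = 0.708) and -0.28 ± 0.12 without control pool 1 (adjusted p = 0.185), and ncf4, of p40phox, had -0.18 ± 0.12 (adjusted p = 0.434) and -0.18 ± 0.14 (adjusted p = 0.531).

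Cebp1 encodes a C/EBP transcription factor found in zebrafish myeloid cells. On the second of its probe sets, of the array's _x_at type, whose probes can also bind other transcripts, its ratios were 0.957, 0.741 and 0.796 in exposed pools, against 1.24 in control pool 1 and 1.31 and 1.04 in control pools 2 and 3. The groups did not overlap, control pool 1 stood with the other controls, and the difference of -0.53 ± 0.14 did not pass (adjusted p = 0.0752; -0.50 ± 0.16 and adjusted p = 0.117 without control pool 1). It passed with a variance trend and robust fit (adjusted p = 0.0366) and with array weights (adjusted p = 0.0115). The first probe set ranged from 0.66 to 1.33 in exposed pools and from 0.765 to 1.13 in controls (-0.01 ± 0.26, adjusted p = 0.982).

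The chemokine receptor gene cxcr4b guides neutrophils and other migrating cells, among them those of the lateral line, along its ligand Cxcl12. Its ratios were 1.37, 1.34 and 1.14 in exposed pools, against 0.855 in control pool 1 and 0.734 and 0.73 in control pools 2 and 3. All exposed pools were above all controls, and the control pools lay close together. Cxcr4b rose by 0.73 ± 0.12 on the log2 scale (1.66-fold; adjusted p = 0.017), and by 0.81 ± 0.13 without control pool 1 (adjusted p = 0.0103). Its adjusted p was 0.0642 and 0.0714 with exposed pools 1 and 2 left out in turn, and 0.054 and 0.0599 with control pools 2 and 3 left out. Of 14 lateral line genes measured, 3 rose and none fell, beside 3 higher and 1 lower by limma's p before adjustment; 4.24% of all genes rose. They were cxcr4b itself, the hair cell parvalbumin gene pvalb8 (2.12 ± 0.21, adjusted p = 0.00227) and the otoferlin gene otofa (0.70 ± 0.16, adjusted p = 0.0417), which did not pass without an exposed pool (adjusted p = 0.125, 0.11 and 0.127) or without control pool 2 or 3 (adjusted p = 0.1 and 0.077). The part of lateral line cells in the cxcr4b result was not tested.

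Among the macrophage genes, grna encodes a progranulin, a secreted precursor of granulin peptides that is abundant in macrophages and needed for lysosomes to work. Its ratios were 0.752, 0.844 and 0.744 in the exposed pools, against 1.16 in control pool 1 and 1.75 and 2.06 in control pools 2 and 3. No exposed pool reached any control pool, and control pool 1 lay between the exposed pools and the other controls. Grna fell by 1.05 ± 0.21 on the log2 scale (2.07-fold lower; adjusted p = 0.0308) and by 1.29 ± 0.13 without control pool 1 (adjusted p = 0.0018). The adjusted p was 0.111, 0.0803 and 0.114 when exposed pools 1 to 3 were left out in turn, 0.0869 and 0.0748 when control pools 2 and 3 were, and 0.0624 with the replicate number as a block. It was 0.0668 with a variance trend and robust fit and 0.0524 with a pseudocount of 1.

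Grna.1 (formerly grn1) encodes a short granulin. Its ratios were 0.561, 0.594 and 0.622 in exposed pools, against 0.581 in control pool 1 and 1.06 and 1.15 in control pools 2 and 3. Control pool 1 fell within the exposed pools. The difference was -0.59 ± 0.25 with all pools (adjusted p = 0.23), and without control pool 1 grna.1 fell by 0.90 ± 0.12 (adjusted p = 0.00506). The median of this probe set over the arrays was 0.608, so the divisor of its ratios is not known, and the annotation pairs the same source transcript with the overlapping antisense gene grnas on another probe set, so the strand read here is uncertain. A probe set annotated to both grna.1 and its neighbour grna.2 was not used.

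Lgals9l1 encodes a galectin, a sugar-binding protein, of the galectin-9 type. Its ratios were 0.896, 0.84 and 0.835 in exposed pools, against 1.1 in control pool 1 and 1.43 and 1.62 in control pools 2 and 3. The control pools stood in the order they had for grna, with no overlap between the groups. Lgals9l1 fell by 0.67 ± 0.15 (1.6-fold lower; adjusted p = 0.045) and by 0.83 ± 0.12 without control pool 1 (adjusted p = 0.00718). Its adjusted p was 0.112, 0.13 and 0.138 when exposed pools 1 to 3 were left out in turn, 0.123 and 0.109 when control pools 2 and 3 were, and 0.107 with the replicate number as a block. The call was also lost with quantile normalization (adjusted p = 0.0572), centring (0.0528), a variance trend and robust fit (0.105) and a pseudocount of 1 (0.06), so it held in 3 of 13 alternatives.

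The pan-leukocyte gene lcp1 encodes L-plastin, the actin-bundling protein of blood cells that is widely used to stain zebrafish leukocytes. Its ratios were 0.898, 1.1 and 0.683 in the exposed pools, against 0.858 in control pool 1 and 3.42 and 3.15 in control pools 2 and 3. Control pool 1 lay inside the range of the exposed pools, and it differed from the mean of the other controls by -1.94 (log2), where ncf1 had -2.4. The log2 difference was -1.26 ± 0.51 with all pools (adjusted p = 0.213), and without control pool 1 lcp1 fell by 1.90 ± 0.20 (3.74-fold lower; adjusted p = 0.00193).

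Coro1a encodes coronin 1A, an actin regulator of leukocyte migration, and its probe sets disagreed. On the second of them the ratios were 0.906, 1.09 and 0.826 in exposed pools, against 0.435 in control pool 1 and 1.45 and 1.43 in control pools 2 and 3. Control pool 1 was the lowest of the 6 pools and the other controls were the highest, so the difference over all pools was -0.05 ± 0.44 (adjusted p = 0.967). Without control pool 1 it fell by 0.62 ± 0.15 (adjusted p = 0.0444). On the first the exposed pools lay at 1.04, 0.567 and 1.2 and the controls at 0.971, 1.0 and 0.998 (-0.16 ± 0.26, adjusted p = 0.818). A wide interval, from -0.76 to 0.45, goes with that last value.

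The split of the controls was thus shared by several of the markers. Control pools 2 and 3 both lay above all exposed pools in 9 of the 15 probe sets (16.8% of all probe sets). Control pool 1 did not in 6 of the 15 probe sets (5.05% of all probe sets), from mpx, ncf1, grna.1, lcp1 and coro1a. For ncf1 and lcp1 control pools 2 and 3 were at least 2-fold above all 4 other pools, which held for 33 of 15502 probe sets, or 0.213%. Lyz, cxcr4b, grna, lgals9l1, 1 probe set of cebp1 and 1 of mpx instead separated all exposed pools from all controls: exposed pools were above in 3 probe sets (14.5% of all probe sets) and below in 3 (11.8%). The split of control pool 1 was known when the markers were chosen, so these counts and the fits without control pool 1 describe it and do not test it. Control pool 1 differed from the mean of control pools 2 and 3 by a median of -0.72 (log2) over the marker probe sets and of 0.001 over all probe sets.

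Lyz was also set against the other markers within each pool. Relative to lcp1 in the same pool, lyz had log2 values of 0.68, 0.64 and 0.80 in exposed pools, against -1.42 in control pool 1 and -2.08 and -2.85 in control pools 2 and 3. Relative to grna the values were 0.94, 1.03 and 0.68, against -1.85, -1.11 and -2.23 in control pools 1 to 3. Against mpx, by the mean of its probe sets, they were 0.64, 0.81 and 0.22, against -1.45, -0.52 and -1.61. Lyz alone already separated the groups, with a log2 difference of 1.57, and its values enter each of these comparisons. They are therefore not independent of each other or of the lyz result. Exposed pools lay above all control pools, pool 1 included, against 8 of the 9 other markers, with differences of 1.67 (coro1a) to 2.83 (lcp1). The exception was cxcr4b, against which lyz had 0.07, 0.36 and 0.06 in exposed pools, against -1.42 in control pool 1 and 0.14 and -0.74 in the others (exact permutation p = 0.3). Cxcr4b, which alone also separated the groups, did so against all of the 8 except ncf1 and coro1a when taken the same way. Each separated comparison had an exact two-sided permutation p of 0.1, and 0.121 adjusted over the 17 comparisons. The value of 0.1 is the smallest that 3 against 3 pools can give, so no comparison could pass the threshold. The comparisons were chosen after the values had been seen, so they describe the pools and test nothing beyond the results of lyz and cxcr4b.

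**Figure D3:**
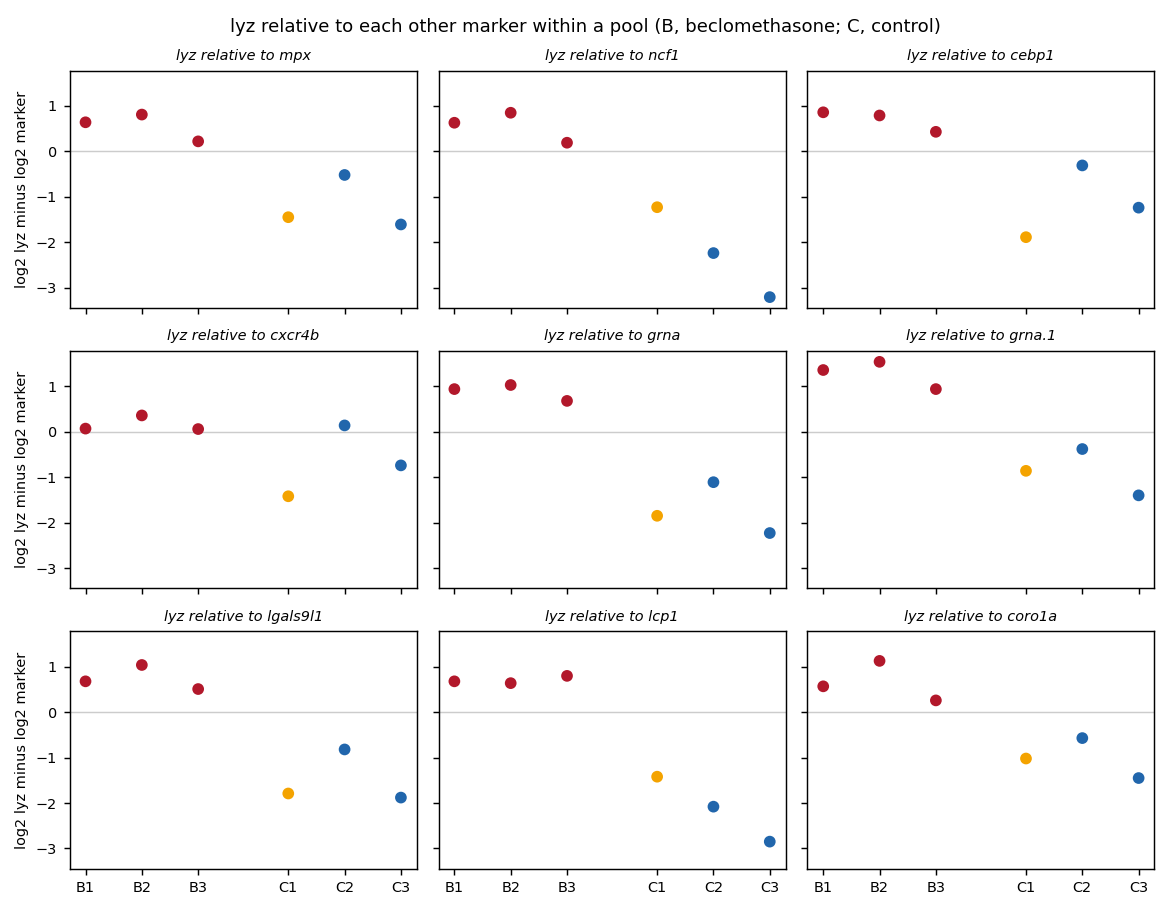
Log2 ratio of lyz minus that of another leukocyte marker in the same pool (vertical axis; mean of probe sets where a marker has several) for exposed pools B1 to B3 (red), control pool C1 (orange) and control pools C2 and C3 (blue). Exposed pools lie above all control pools in every panel but that of cxcr4b, where C2 lies at 0.14, among the exposed pools. Lyz values enter every panel, and lyz alone also separates the groups. The position of 0 depends on the divisors of the ratios and compares no levels between genes.

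Lists of leukocyte genes that include the markers themselves were read next, each gene taken as the average of its probe sets. The lists overlap, so cxcr4b counts in the neutrophil, pan-leukocyte, chemokine and cytokine, and lateral line lists. Of 71 leukocyte genes measured, 5 rose and 4 fell in exposed fins, where 4.24% of all genes rose and 4.58% fell, 8.83% in all, and the list median was -0.17 against 0.02 over all genes. The markers lyz and cxcr4b were among the rises, and grna and lgals9l1 among the falls. The other genes called were cebpa, cxcl12a and csf1b, which rose, and ctsk and capgb, which fell. Without control pool 1, 7 rose and 24 fell (5.07% and 5.99% of all genes), with a median of -0.20 against 0.03. The markers ncf1, grna, grna.1, lgals9l1 and lcp1 are among those falls. The lists were chosen with earlier results of these data known, and control pool 1 was left out with its values known. The counts without control pool 1 thus describe the pools and do not test whether leukocyte genes fell. For the unadjusted counts given with the lists, the share of all genes with an unadjusted p under 0.05 was 12.7% for higher and 11.4% for lower. Without another 1 of the pools, the number that rose was 2 to 5 and the number that fell 1 or 2.

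Of 14 neutrophil genes, 3 rose (4.24% of all genes) and none fell (4.58% of all genes), with a median of -0.12. Limma's unadjusted p was under 0.05 for 3 higher and 1 lower. Besides lyz and cxcr4b the riser was cebpa, a C/EBP factor needed for granulocyte formation that other tissues also use. Its ratios were 1.24, 1.28 and 1.31 in exposed pools, against 0.759 in control pool 1 and 0.583 and 0.626 in control pools 2 and 3 (0.97 ± 0.12, adjusted p = 0.00495), and it passed without any 1 pool. Leaving out control pool 1 gave 3 rises and 5 falls. Among them was mmp13a, a collagenase gene also active in wound epidermis, which is given as a case of the split of the controls. Its ratios were 0.917, 0.789 and 0.795 in exposed pools, against 1.08 in control pool 1 and 4.74 and 2.97 in control pools 2 and 3. It had a difference of -1.58 ± 0.48 with all pools (adjusted p = 0.0906) and fell by 2.17 ± 0.20 without control pool 1 (adjusted p = 0.000966). The neutrophil rises numbered 1 without exposed pool 1 or 2 and 2 without exposed pool 3 or control pool 3.

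Of 19 macrophage genes, 3 fell (4.58% of all genes) and none rose (4.24% of all genes), with a median of -0.41. Limma's unadjusted p was under 0.05 for 8 lower and 2 higher. Next to grna and lgals9l1 stood ctsk, the gene of the collagen-degrading protease cathepsin K. Its ratios were 0.578, 0.868 and 0.79 in exposed pools, against 2.09 in control pool 1 and 1.5 and 1.13 in control pools 2 and 3, so here control pool 1 was the highest (-1.05 ± 0.25, adjusted p = 0.0422). It did not pass without exposed pool 1, 2 or 3 (adjusted p = 0.136, 0.0732 and 0.116) or control pool 2 (adjusted p = 0.0945). No macrophage gene fell without exposed pool 1, 2 or 3 or without control pool 2, and 1 fell without control pool 3. With control pool 1 left out, 10 fell and 2 rose (5.99% and 5.07% of all genes). The 2 that rose were ccl34b.1 (1.26 ± 0.21, limma adjusted p = 0.0111) and tnfaip8l2b (0.89 ± 0.13, adjusted p = 0.00548). Neither was called with all pools (adjusted p = 0.0777 and 0.095).

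The next genes were picked after their values had been seen, ctss2.1 and marco as cases of that split and csf1ra as one without it. The cathepsin S gene ctss2.1, of a lysosomal protease, had ratios of 0.769, 0.886 and 0.994 in exposed pools, against 1.01 in control pool 1 and 4.19 and 4.08 in control pools 2 and 3. It had a difference of -1.56 ± 0.52 (adjusted p = 0.116) and fell by 2.24 ± 0.13 without control pool 1 (adjusted p = 0.00021). The scavenger receptor gene marco, which marks macrophages in zebrafish larvae, had ratios of 0.823, 1.02 and 0.759 in exposed pools, against 0.977 in control pool 1 and 1.85 and 1.88 in control pools 2 and 3. Csf1ra, the receptor gene for macrophage growth factor that pigment cells also use, ranged from 0.892 to 1.06 in exposed pools and had 0.978 in control pool 1 and 0.935 and 1.37 in control pools 2 and 3, with a difference of -0.14 ± 0.16 (adjusted p = 0.687) and of -0.21 ± 0.18 without control pool 1 (adjusted p = 0.545). So not every macrophage gene showed the split.

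Of 21 pan-leukocyte genes, cxcr4b rose and capgb fell (limma's unadjusted p was under 0.05 for 1 higher and 6 lower), with a median of -0.28. With 4.24% of all genes higher and 4.58% lower, these counts of 1 in each direction are near the shares over all genes. Capgb encodes an actin-capping protein of the gelsolin family, and its ratios were 0.806, 0.782 and 0.668 in exposed pools, against 1.19 in control pool 1 and 1.26 and 1.4 in control pools 2 and 3 (-0.77 ± 0.11, adjusted p = 0.00994). All 3 control pools were high, and capgb passed without any 1 pool. Leaving out control pool 1 gave 9 falls (5.99% of all genes). Spi1b and ptprc were not called over all pools and are given as cases of the split of the controls. Spi1b, which encodes the myeloid master regulator Pu.1, had ratios of 0.854, 0.951 and 0.903 in exposed pools, against 1.01 in control pool 1 and 2.58 and 2.4 in control pools 2 and 3. Its difference was -1.03 ± 0.33 (adjusted p = 0.109), and it fell by 1.46 ± 0.11 without control pool 1 (adjusted p = 0.000413). Ptprc, of the leukocyte surface phosphatase Cd45, had -0.92 ± 0.33 (adjusted p = 0.138) and fell by 1.35 ± 0.11 without control pool 1 (adjusted p = 0.000723). Other genes of this list, such as runx1 and myb, did not show the split (0.15 ± 0.13 and 0.07 ± 0.12 without control pool 1). Their ratios were below 1 in every pool, 0.707 to 0.941 for runx1 and 0.678 to 0.817 for myb. The divisor of these ratios is thus not known, nor is their signal over background.

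Of 13 chemokine and cytokine genes, 3 rose (4.24% of all genes) and none fell (4.58% of all genes), with a median of 0.11. By limma before adjustment, 3 were higher and 1 lower. The rises include cxcr4b, which is also counted in the neutrophil, pan-leukocyte and lateral line lists. The 1 lower was mif, of macrophage migration inhibitory factor (-0.78 ± 0.19, adjusted p = 0.0501), which passed under 5 alternatives (adjusted p = 0.0223 to 0.0489), chosen for mention after its values were seen. The Cxcr4 ligand gene cxcl12a had ratios of 1.17, 1.28 and 1.2 in exposed pools, against 0.557 in control pool 1 and 0.833 and 0.572 in control pools 2 and 3 (0.92 ± 0.16, adjusted p = 0.019), so cxcl12a and cxcr4b both rose. Cxcl12b, the other Cxcl12 gene measured, was not called (0.74 ± 0.38, adjusted p = 0.297, and 0.26 ± 0.14, adjusted p = 0.326 without control pool 1). Cxcl12a did not pass without exposed pool 1, 2 or 3 (adjusted p = 0.0655, 0.0664 and 0.0677) or control pool 3 (adjusted p = 0.0615). Csf1b, a ligand of Csf1 receptors, had 1.28, 1.23 and 1.38 in exposed pools, against 0.694 in control pool 1 and 0.77 and 0.648 in control pools 2 and 3 (0.88 ± 0.10, adjusted p = 0.00443), and passed without any 1 pool. The paralogous receptor gene cxcr4a had 1.03, 1.25 and 0.973, against 1.71 in control pool 1 and 0.913 and 0.893 in the others (-0.05 ± 0.26, adjusted p = 0.932). These rises numbered 1 without exposed pool 1 or 2 and 2 without exposed pool 3 or control pool 3. Of 5 lymphoid genes, none was called in either direction, and none had an unadjusted p under 0.05 in limma. Their ratios were all below 1 in every pool, so the divisor and the signal over background are not known. Whether these genes were detected cannot be told.

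**Figure D4:**
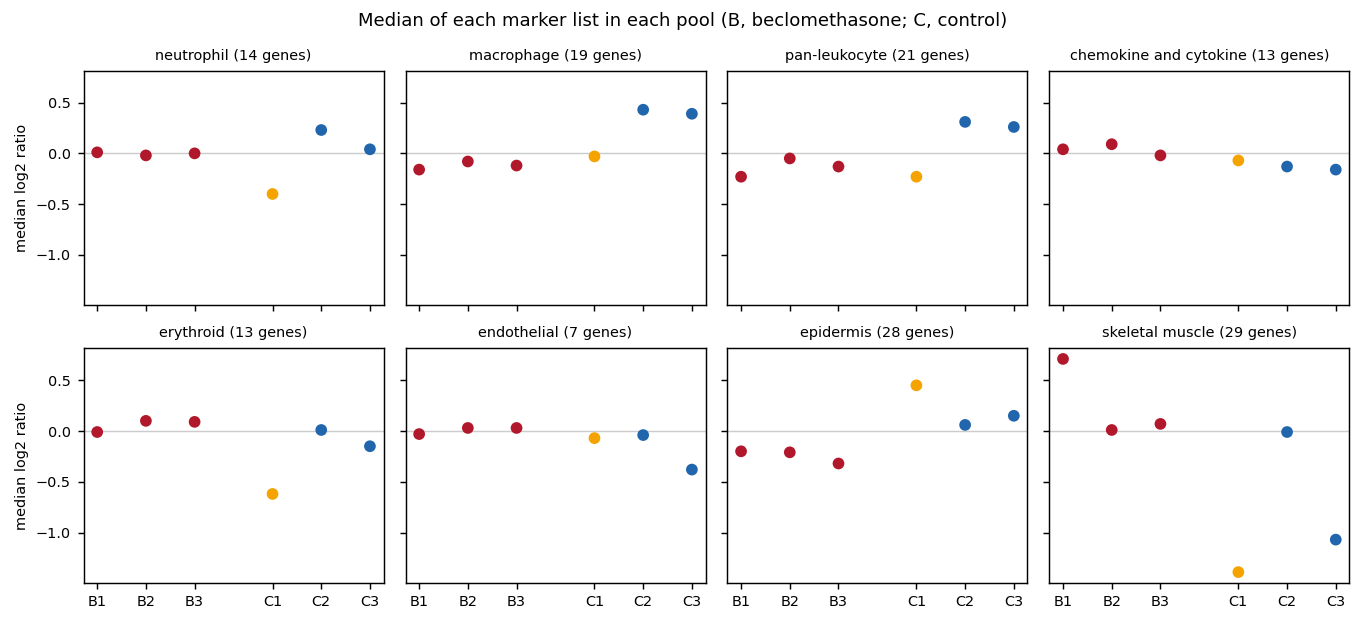
Median log2 ratio over the measured genes of each marker list (vertical axis) in exposed pools B1 to B3 (red), control pool C1 (orange) and control pools C2 and C3 (blue). The macrophage medians are 0.43 and 0.39 in C2 and C3, against -0.03 in C1. C1 has the lowest median in the neutrophil (-0.40), erythroid (-0.62) and skeletal muscle (-1.39) lists and the highest in the epidermis list (0.45).

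Markers of other fin cell types differed between pools as well. In log2, the macrophage list had medians of -0.16, -0.08 and -0.12 in the exposed pools, against -0.03 in control pool 1 and 0.43 and 0.39 in control pools 2 and 3. Pools are given in the order 1 to 3 for the next lists. The pan-leukocyte list had -0.23, -0.05 and -0.13 in exposed pools and -0.23, 0.31 and 0.26 in control pools. Neutrophil medians ranged from -0.02 to 0.01 in exposed pools and were -0.40, 0.23 and 0.04 in control pools, lowest in control pool 1. Erythroid medians were -0.01, 0.10 and 0.09 in exposed pools and -0.62, 0.01 and -0.15 in control pools, lowest in control pool 1. Epidermal medians were -0.20, -0.21 and -0.32 in exposed pools and 0.45, 0.06 and 0.15 in control pools, highest in control pool 1. Beside the counts that follow, 4.24% of all genes rose and 4.58% fell with all pools. Of 28 epidermal genes, 11 fell and 1 rose, with pkp1b (-2.11 ± 0.14) and anxa1b (-2.96 ± 0.27) among the falls and krt94 (1.47 ± 0.15) as the rise. The count of epidermal falls was also 11 without control pool 1 (5.99% of all genes). Of 29 muscle genes, myod1 rose (0.77 ± 0.15, adjusted p = 0.0219, and 0.0646 to 0.0828 with an exposed pool or control pool 3 left out), while 19 were higher at an unadjusted p under 0.05 and 21 were called without control pool 2. Of 7 endothelial genes, plvapb rose (1.1 ± 0.23, adjusted p = 0.0287, and 0.0609 to 0.102 with an exposed pool or control pool 3 left out). The replicate block ended that call (adjusted p = 0.0837), and without control pool 2 the endothelial rises numbered 2. The muscle and endothelial counts without control pool 2 have no share of all genes beside them. No erythroid gene among 13 was called (limma's unadjusted p was under 0.05 for 3 higher and 1 lower), and their median difference was 0.32. The 3 higher were hbbe2 (0.43 ± 0.12), slc4a1a (1.11 ± 0.46) and epb41b (0.66 ± 0.28), and the 1 lower was urod (-0.37 ± 0.13). The carbonic anhydrase gene cahz, chosen for mention after its values were seen, was not called with all pools (-0.61 ± 0.27, adjusted p = 0.231). Cahz fell by 0.93 without control pool 1 (adjusted p = 0.0124) and by 0.82 with array weights (adjusted p = 0.0446). The part of differing tissue makeup in the leukocyte values was not tested, and since the ratios carry no level, the presence of a cell type in a pool cannot be read from them.

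Genes outside the markers with the most similar profile over the 6 pools were named by Pearson correlation of log2 values, as a description with n = 6 pools that share the arrays and the split of the groups. They had the highest r among all named genes outside the markers, so an r near 1 follows from that choice. For lcp1 the genes were mafbb, itgae.2, rasgef1bb and marco (r = 0.986 to 0.99). Mafbb, of the Maf factor family, had ratios of 0.994, 1.01 and 0.861 in exposed pools, against 0.976 in control pool 1 and 3.14 and 2.93 in control pools 2 and 3. The integrin gene itgae.2 had 0.788, 1.01 and 0.733, against 0.989 in control pool 1 and 2.64 and 2.54 in the others. These likenesses rest on control pools 2 and 3 standing above the other 4 pools. For lyz they were gatm, ndufa9a, dnaja3a and lin7b (r = 0.988 to 0.993). Pearson r takes no account of the size of a change, and lin7b ranged only from 0.791 to 1.2, where lyz ranged from 0.32 to 1.72. Gatm, of creatine synthesis, had 1.98, 2.23 and 1.21 in exposed pools, against 0.271 in control pool 1 and 0.787 and 0.331 in control pools 2 and 3. For grna they were smek1, glmp, samd11 and cmpk (r = 0.995 to 0.997), of which glmp encodes a lysosomal membrane protein and had 0.896, 0.941 and 0.902 in exposed pools, against 1.06 in control pool 1 and 1.2 and 1.24 in the others. Smek1 ranged only from 0.952 to 1.15, where grna ranged from 0.744 to 2.06.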

How the data were processed

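RNA of 6 fin pools was measured on Affymetrix zebrafish arrays. Per the submitters' processing notes, GCRMA was used. The authors deposited a linear ratio per probe set. No source used here states the divisor, which was inferred: of 15502 probe sets, 12557 had a median over the arrays equal to 1 (tolerance 1e-06) and 2944 had a lower one. Signal over background is unknown, and 3 arrays per group limit the precision. The 115 control probe sets were left out. Of the rest, 10795 carried a single symbol, 135 several and 4572 none in the annotation.

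Log2 ratios were fitted by the moderated two-sided test of limma 3.58.1 under R 4.3.3 (Benjamini-Hochberg over all probe sets, or over all 8793 genes for lists, threshold 0.05) with no filter, checked on simulated data. Differences are exposed minus control. The markers and lists were chosen with earlier results of these data known. The lists held 153 leukocyte genes, 71 of them measured. Named by rule were all markers, up to 4 called genes per direction and leukocyte list, up to 2 per other list, the 4 genes most like lyz, lcp1 and grna, and fkbp5, tsc22d3 and hsd11b2 as checks of exposure. Tsc22d3 and hsd11b2 rose by 1.66 ± 0.18 and 4.54 ± 0.18. Alternatives were quantile normalization, median centring, a variance trend with robust fit, array weights, the replicate number as block, omission of any 1 array, a pseudocount of 1 and leaving out probe sets of median below 1.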

Additional observations from a re-analysis of the deposited data

How the results depend on the processing

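With arrays centred on their medians, 1 marker probe set was higher. The number of markers lower was 1 with quantile normalization and with centring (grna in both), 1 with a variance trend and robust fit (the second probe set of cebp1, with grna and lgals9l1 both lost), 4 with array weights, and 0 with a pseudocount of 1 (4 at an unadjusted p under 0.05 in limma). With the replicate number as a block it was 0 (5 at an unadjusted p under 0.05), and leukocyte list genes lower numbered 0 (20 at an unadjusted p under 0.05). These were 14 with array weights. With 1 pool left out at a time, markers higher numbered 0 to 2 and markers lower 0 to 7, and leukocyte list genes higher 2 to 7 and lower 1 to 24, the highest counts of falls being those without control pool 1. Shares of all probe sets or genes called are given only with all pools and without control pool 1. Under the other settings, a change in any count given here or above cannot be told apart from a change in calls across the array. The zeros without 1 pool had 2 or 3 higher and 3 or 4 lower markers at an unadjusted p under 0.05.

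No pairing of pools by replicate number was seen. Deviations from the group means correlated at -0.209, -0.038 and 0.111 for pools of the same number. Exposed and control pools of different number had -0.245 to 0.265. Such correlations cannot exclude a pairing, which the sample titles do not state, so the block is a check only. Under the block 2 markers were higher, lyz (adjusted p = 0.0432) and cxcr4b (adjusted p = 0.044), as without it.

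Among the markers, signs turned for 5 probe sets, none of them called over all pools. The first probe set of mpx ranged from -0.11 to 0.01 with 1 pool left out, and the fourth took -0.18 as the mean of the mpx probe sets. The first of cebp1 had 0.02 with quantile normalization, 0.44 with array weights, 0.003 with a pseudocount of 1 and -0.26 to 0.25 with 1 pool left out. With 1 pool left out the first of coro1a ranged from -0.37 to 0.17 and the second from -0.62 to 0.24. The cause was not tested. Of 201 values of marker probe sets under alternatives, 154 kept sign and side of the threshold, 27 lost a call, 8 gained one and 12 turned sign.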
